A study of Mus musculus with 11 samples.

Results

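A pair of mouse embryonic stem (ES) cell lines that differ in the maintenance DNA methyltransferase Dnmt1 were compared: TKO, a knockout of Dnmt1, Dnmt3a and Dnmt3b, and DKO, a knockout of Dnmt3a and Dnmt3b that keeps Dnmt1. In neither line had an enzyme been put back. Each line had 1 polyA RNA-seq library, so the comparison used 2 of the 11 libraries of the study. The members were the 13160 genes, of 24016 in the deposited table, that reached 1 RPKM (reads scaled to transcript length and to library size) or more in TKO or in DKO. The difference given throughout is TKO minus DKO on the log2(RPKM + 0.5) scale, which understates the change of low genes.

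The other libraries were set beside these for reference. In the TKO family, Dnmt3a1 (2 libraries), Dnmt3a2 (2 libraries) or Dnmt3b1 (1 library) had been put back into TKO. In the DKO family, each of the same 3 enzymes had been put back into DKO, with 1 library each. The wild-type line (WT, 1 library) was J1. All lines were of strain 129S4/SvJae and were grown with serum and LIF on irradiated mouse embryonic fibroblasts, which add fibroblast RNA to every library. How the knockout alleles were made, how many clones stand behind a line and how the enzymes were delivered are not given in the sources used here. A line stands for its genotype, and the effect of Dnmt1 and a clonal difference between the TKO and DKO lines cannot be told apart. The add-back lines carry the name of their parent and may share its history, so they are not independent lines of that genotype.

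Dnmt1 is the maintenance methyltransferase: guided by Uhrf1, it copies CpG methylation from the old to the new strand behind the replication fork. Dnmt3a and Dnmt3b set methylation on unmethylated DNA, and Dnmt3l is a partner without catalytic activity that stimulates them. Without Dnmt3a and Dnmt3b, ES cells lose methylation slowly over passages, and without all of these enzymes they lack it almost entirely, yet still self-renew. Genes known to be held silent by promoter methylation in such cells include germline genes and X-linked Rhox genes, and imprinted genes carry methylation on 1 parental allele.

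The promoters of 6 genes on which the comparison turns are shown, since CpG sites are what these enzymes methylate. Ndufs5, Cyct, Ube2l6 and Ubd had among the larger values in TKO, and Otx2 and Alg13 among the smaller ones. Each sequence is the 250 bases before the RefSeq start on build GRCm38.p6, read 5′ to 3′ on the gene's strand, with each CG in capitals (CG reads the same on both strands). The stretches are chr4:123718187-123718436 (minus strand) for Ndufs5, chr2:76360454-76360703 (minus) for Cyct, chr2:84798578-84798827 (plus) for Ube2l6, chr17:37193642-37193891 (plus) for Ubd, chr14:48667645-48667894 (minus) for Otx2 and chrX:144317716-144317965 (plus) for Alg13.
Ndufs5: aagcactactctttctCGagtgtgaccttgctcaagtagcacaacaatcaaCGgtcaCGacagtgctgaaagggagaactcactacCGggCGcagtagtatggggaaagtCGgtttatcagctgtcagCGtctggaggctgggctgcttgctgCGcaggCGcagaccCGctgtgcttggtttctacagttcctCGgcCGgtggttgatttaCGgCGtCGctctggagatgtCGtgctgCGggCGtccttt
Cyct: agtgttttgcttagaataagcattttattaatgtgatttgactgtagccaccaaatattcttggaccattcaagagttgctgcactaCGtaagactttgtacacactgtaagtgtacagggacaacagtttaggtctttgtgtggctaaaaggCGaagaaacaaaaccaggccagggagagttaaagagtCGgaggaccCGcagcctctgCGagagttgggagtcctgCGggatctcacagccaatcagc
Ube2l6: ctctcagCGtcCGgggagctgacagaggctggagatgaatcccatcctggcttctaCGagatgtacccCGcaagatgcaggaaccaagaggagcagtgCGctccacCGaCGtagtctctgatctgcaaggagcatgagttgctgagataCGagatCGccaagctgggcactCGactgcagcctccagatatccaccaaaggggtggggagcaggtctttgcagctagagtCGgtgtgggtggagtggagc
Ubd: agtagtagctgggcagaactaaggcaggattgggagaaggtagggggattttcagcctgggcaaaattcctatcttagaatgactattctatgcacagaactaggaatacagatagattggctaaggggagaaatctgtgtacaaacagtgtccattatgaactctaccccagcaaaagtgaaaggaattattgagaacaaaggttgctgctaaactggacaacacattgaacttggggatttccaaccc
Otx2: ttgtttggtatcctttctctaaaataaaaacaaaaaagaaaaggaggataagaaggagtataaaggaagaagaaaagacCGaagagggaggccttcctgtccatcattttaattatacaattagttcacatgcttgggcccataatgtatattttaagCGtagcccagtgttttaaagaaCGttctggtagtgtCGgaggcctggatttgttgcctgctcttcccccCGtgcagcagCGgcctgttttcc
Alg13: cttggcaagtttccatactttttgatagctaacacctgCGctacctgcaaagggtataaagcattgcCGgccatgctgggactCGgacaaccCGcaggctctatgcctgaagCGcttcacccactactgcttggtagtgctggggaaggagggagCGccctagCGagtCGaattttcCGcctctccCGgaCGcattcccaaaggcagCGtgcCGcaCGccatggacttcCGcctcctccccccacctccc
Ndufs5 has 18 CG in this window, Alg13 15, Ube2l6 11, Cyct and Otx2 6 each and Ubd 0. Over the 27025 promoters of the RefSeq table the median was 6 CG (quartiles 2 and 16), and 91.7% held at least 1. Genes that were higher in TKO thus had windows with many, few and no CG. Methylation itself was not measured in the data used here.

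The depth implied by the spacing of low RPKM values was 25.92 M reads in TKO and 29.32 M in DKO, within the range of 21.7 to 32.78 M over the 11 libraries. The log2 values of TKO and DKO correlated at r = 0.948 over the 13160 genes (genes are no replicates of one another). Between replicate libraries the same r was 0.982 for TKO+Dnmt3a1 and 0.973 for TKO+Dnmt3a2. The 12 ES cell markers (Pou5f1, Sox2, Nanog and others) were all at 1 RPKM or more in both lines and summed to 3405 RPKM in TKO, 4098 in DKO and 4182 in WT. Fibroblast RNA was present in both lines, and the fibroblast and macrophage values are given with the lineage genes.

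In TKO 696 genes (5.29% of those compared) were higher than in DKO by 1 or more on the log2 scale, and 454 (3.45%) were lower, 1150 (8.74%) in all. By 2 or more, which is 4-fold on this scale, 78 were higher and 65 lower. Between libraries of 1 line the same difference of 1 was passed by 313 of 12898 genes (2.43%, TKO+Dnmt3a1) and 518 of 13172 genes (3.93%, TKO+Dnmt3a2). The nearest members to the threshold were Arl16 (3.26 RPKM in TKO and 1.38 in DKO, inside) and Flrt3 (2.52 and 1.01, outside) on the higher side. On the lower side they were Gpc3 (31.7 in TKO and 64.1 in DKO, inside) and Abca7 (3.92 and 8.33, outside). These counts come from 1 library per line and have no replicate check. Of the 1150 genes 60.5% were higher, but 51.5% after median ratio scaling (583 higher and 548 lower), 50.4% after quantile normalization (577 and 568) and 49.2% with chromosome medians removed (493 and 509). The median difference over all genes was 0.07 with the deposited values, −0.02 after median ratio scaling and −0.01 after quantile normalization.

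**Figure D1:**
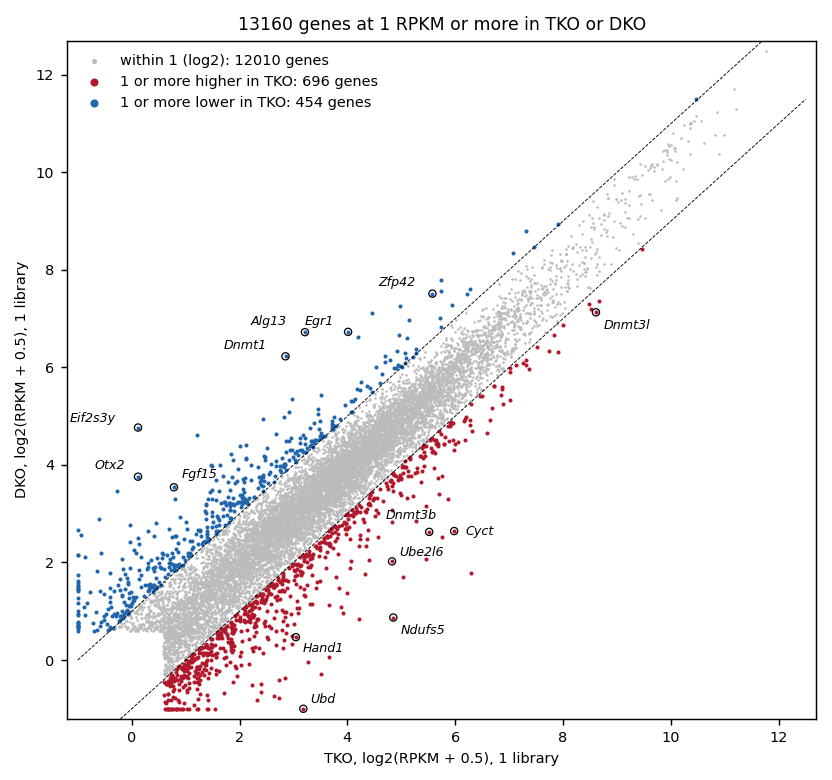
Levels of the 13160 genes compared, as log2(RPKM + 0.5) in TKO (x axis) and in DKO (y axis), 1 library each; dashed lines mark a difference of 1. The 696 genes higher in TKO (red) lie below the lines and the 454 lower ones (blue) above them, with Dnmt1, Otx2, Alg13 and Ndufs5 among the farthest from the diagonal.

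Limma, fitted to all 11 libraries with the spread taken from the 2 replicated lines, called 6 of 14229 genes between the parents (0.0422%; Benjamini-Hochberg adjusted p under 0.05), 3 higher and 3 lower (0.0211% each), with 1915 (13.5%) at an unadjusted p under 0.05. The 3 that rose in TKO were 2210409E12Rik, Ndufs5 and Gm8909, and the 3 that fell were Dnmt1, Otx2 and Alg13. The lone TKO and DKO libraries are assumed to vary like TKO+Dnmt3a1 and TKO+Dnmt3a2. With quantile normalization limma called 0 (smallest adjusted p 0.0529; 1929 unadjusted), and without any 1 of the 4 libraries of TKO+Dnmt3a1 and TKO+Dnmt3a2 it called 0 (1426 to 2562 unadjusted).

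The targeted gene was the first check of the labels. Dnmt1 was at 6.73 RPKM in TKO, against 74.5 in DKO and 71.0 in WT. With an enzyme put back, it was at 8.49, 7.27, 8.13, 9.80 and 12.4 RPKM in the 5 TKO libraries, against 59.8, 63.1 and 55.9 in the 3 DKO libraries. All 6 libraries of the TKO family were thus below all 4 of the DKO family. Dnmt1 fell by 3.37 ± 0.24 on the log2 scale (SE; limma, adjusted p = 0.041) between the parents and by 2.62 ± 0.15 between the add-back families (limma, adjusted p = 0.000279).

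Dnmt3a, deleted in both lines, was at 4.24 RPKM in TKO and 3.63 in DKO, against 22.7 in WT, a difference between the parents (0.20 ± 0.46) smaller than its error. Dnmt3b, also deleted in both by the labels, was at 45.3 RPKM in TKO, against 5.68 in DKO and 25.03 in WT. The total transcript of Dnmt3b is therefore not low in the library labelled TKO, and 1 value per gene does not show whether it codes for an active enzyme. The difference of 2.89 ± 0.32 did not pass between the parents (limma, adjusted p = 0.0781). Between the add-back families Dnmt3b rose by 1.28 ± 0.19 (limma, adjusted p = 0.006; 0.0605 without DKO+Dnmt3a2).

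Dnmt3l was at 391 RPKM in TKO, 140 in DKO and 97.0 in WT. The TKO add-back libraries held 275 to 416 RPKM, against 187 to 252 in the DKO ones. The families did not overlap, and Dnmt3l rose by 0.74 ± 0.10 between them (limma, adjusted p = 0.0049). Zfp57, which keeps methylation at imprinted loci, was at 117 RPKM in TKO, against 46.5 in DKO and 152 in WT. Its add-back families overlapped (103 to 150 RPKM in TKO lines and 127 to 136 in DKO lines). Uhrf1 was at 119 RPKM in TKO, 111 in DKO and 114 in WT. Of the 12 genes of the methylation machinery 3 were higher in TKO by 1 or more (Dnmt3b, Dnmt3l and Zfp57) and 1 was lower (Dnmt1). Of 20 genes for Tet oxidases, base excision repair and methyl-CpG readers, 0 were higher and 1, the glycosylase gene Neil2 (3.64 RPKM in TKO and 8.74 in DKO), was lower. The add-back families overlapped for Neil2 (1.26 to 9.02 RPKM in TKO lines and 2.05 to 5.84 in DKO lines). Over all genes 5.29% were higher and 3.45% lower.

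Ndufs5, a subunit of mitochondrial complex I on chromosome 4, was at 28.4 RPKM in TKO, against 1.33 in DKO and 0.903 in WT. The 5 TKO add-back libraries held 32.1, 32.3, 31.4, 31.3 and 25.1 RPKM, against 2.12, 0.548 and 3.35 in the 3 DKO ones. Every library of the TKO family lay above every one of the DKO family and WT, with little spread within the TKO family. Ndufs5 rose by 3.98 ± 0.23 between the parents (limma, adjusted p = 0.032) and by 3.86 ± 0.33 between the add-back families (limma, adjusted p = 0.001).

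2210409E12Rik was at 78.0 RPKM in TKO and 2.94 in DKO (4.51 ± 0.29; limma, adjusted p = 0.032), and Gm8909 at 10.9 and 0.323 RPKM (3.80 ± 0.29; limma, adjusted p = 0.0443). Both also rose between the add-back families (limma, adjusted p = 0.0015 and 0.0013).

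Other large differences on the higher side recurred in the add-back lines without passing between the parents. Cyct, the testis form of cytochrome c, was at 62.7 RPKM in TKO, 5.75 in DKO and 6.004 in WT. With an enzyme put back, it was at 57.1, 91.2, 52.1, 98.5 and 28.5 RPKM in the TKO libraries, against 5.47, 5.24 and 3.88 in the DKO libraries, which do not overlap. The difference was 3.34 between the parents (limma, adjusted p = 0.136), and Cyct rose by 3.38 ± 0.27 between the add-back families (limma, adjusted p = 0.00086). Ipp, an actin-binding kelch protein, was at 53.4 RPKM in TKO and 5.24 in DKO, and rose by 3.05 ± 0.27 between the add-back families (limma, adjusted p = 0.0013).

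Ube2l6, which joins the interferon-induced modifier Isg15 to its targets, was at 27.9 RPKM in TKO and 3.56 in DKO, against 1.14 in WT. The TKO add-back libraries held 22.6 to 39.0 RPKM, and the DKO ones 1.52, 1.03 and 2.88. Ube2l6 rose by 3.79 ± 0.27 between the add-back families (limma, adjusted p = 0.000629), above the 2.81 between the parents. Ubd, another ubiquitin-like modifier, was at 8.59 RPKM in TKO and at 1.70 to 9.59 RPKM in its add-back libraries. It was listed at 0 in DKO, in the 3 DKO add-back libraries and in WT, so no fold is given.

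Another set was high in the TKO parent and less apart between the add-back families. Pramel6, of a gene family active in germ cells and early embryos, was at 6.11 RPKM in TKO and 0.087 in DKO, and at 0.575 to 2.66 RPKM in the TKO add-back libraries. Its close copy Pramel7, which can share reads with it, was at 4.77 RPKM in TKO and 0.216 in DKO. Igll1, a surrogate light chain gene of B-cell precursors, was at 6.72 RPKM in TKO and 0.271 in DKO. It was at 0.139 to 0.886 RPKM in the TKO add-back libraries and 0 to 0.12 in the DKO ones, low values that do not overlap. Tnnt3, a troponin of fast skeletal muscle, was at 4.77 RPKM in TKO and 0.137 in DKO. Its add-back families did not overlap either (0.428 to 2.05 RPKM in TKO lines and 0.215 to 0.352 in DKO lines). Dok2, a docking protein of tyrosine kinase signalling, was at 14.6 RPKM in TKO and 1.45 in DKO. Its TKO add-backs held 5.44 to 15.8 RPKM, with 14.2 and 15.8 in TKO+Dnmt3a2, and overlapped the DKO add-backs (6.13 to 6.55), which all lay above the DKO parent. The difference between parent and add-back contrasts did not pass for any of these 5 genes (limma, adjusted p 0.346 to 0.371).

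On the lower side, Otx2, a homeobox factor of the primed epiblast and forebrain, was at 0.585 RPKM in TKO, against 13.05 in DKO and 7.60 in WT. Between the parents it fell by 3.64 ± 0.27 (limma, adjusted p = 0.0443). TKO+Dnmt3a1 held 7.06 and 7.14 RPKM, TKO+Dnmt3a2 0.95 and 0.954 and TKO+Dnmt3b1 1.74, against 7.65, 6.35 and 5.31 in the DKO add-back lines. TKO+Dnmt3a1 thus lay among the DKO lines, and the other TKO add-backs below them. Between the add-back families its adjusted p was 0.042 by limma, and leaving out 1 library at a time kept that call in 1 of 8 fits.

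Alg13, a subunit of an enzyme of early N-glycan assembly, lies on the X chromosome. It was at 8.78 RPKM in TKO, 105 in DKO and 66.0 in WT, and fell by 3.51 ± 0.22 between the parents (limma, adjusted p = 0.032). TKO+Dnmt3a1 held 59.5 and 49.0 RPKM and TKO+Dnmt3b1 47.3, but TKO+Dnmt3a2 held 6.74 and 7.42, against 71.1 to 87.9 in the DKO add-back lines. The low level was thus kept in TKO+Dnmt3a2 alone among the add-back lines, and the family contrast did not pass (limma, adjusted p = 0.0571).

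Fgf15, a growth factor of the epiblast, was at 1.22 RPKM in TKO, 11.1 in DKO and 8.66 in WT. It was at 1.28 to 3.36 RPKM in the TKO add-back libraries, against 8.05 to 10.5 in the DKO ones, and fell by 1.83 ± 0.24 between these families (limma, adjusted p = 0.0042). Kbtbd11, a BTB and kelch domain gene, was at 0.174 RPKM in TKO, 4.06 in DKO and 5.58 in WT. It fell by 2.19 ± 0.16 between the add-back families (limma, adjusted p = 0.000629). Rps15a-ps6, a ribosomal protein pseudogene whose reads can be shared with its parent gene, was at 0.323 RPKM in TKO, 10.5 in DKO and 10.3 in WT. Klk1b22, a kallikrein with close copies, was at 0.048 RPKM in TKO, 3.84 in DKO and 3.21 in WT, and its add-back families did not overlap either (0 to 0.113 RPKM in TKO lines and 0.684 to 1.30 in DKO lines).

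**Figure D2:**
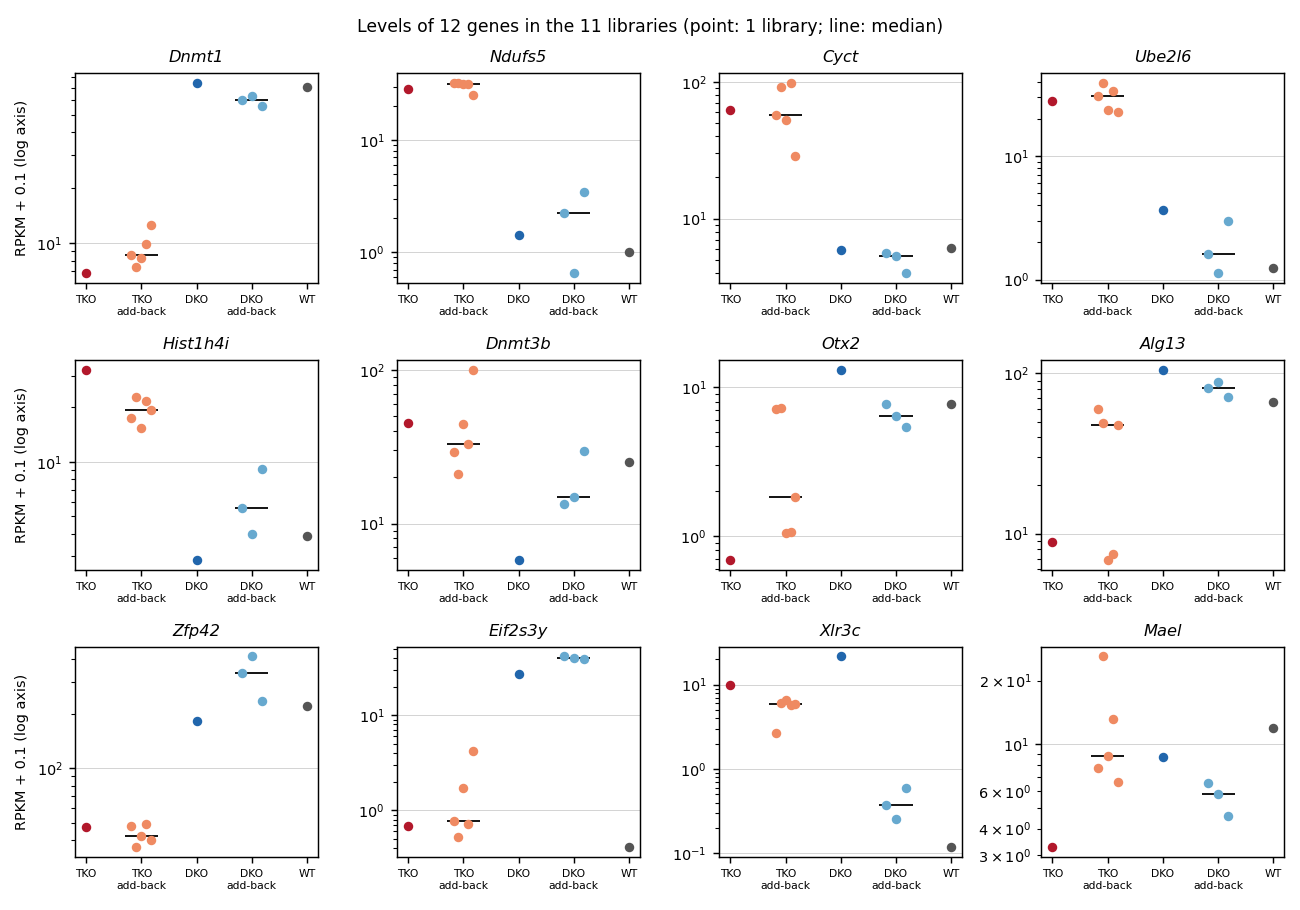
Levels of 12 genes in the 11 libraries as RPKM + 0.1 on log axes, with TKO, its add-back lines, DKO, its add-back lines and WT from left to right; each point is 1 library and each line a median. Dnmt1, Ndufs5, Cyct, Ube2l6 and Zfp42 keep the TKO and DKO families apart, Otx2 and Alg13 are low in TKO with some add-back libraries near DKO, and Xlr3c and Mael are lower in TKO than in DKO but higher in the TKO add-back lines.

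The add-back lines repeat the contrast of Dnmt1 absent against present in 8 libraries that the parent comparison did not use. The level of the enzyme put back was not matched, however. Dnmt3a was at 39.4 and 34.2 RPKM in TKO+Dnmt3a1, against 17.6 in DKO+Dnmt3a1. In TKO+Dnmt3a2 it was at 21.8 and 11.1 RPKM, against 11.4 in DKO+Dnmt3a2. Dnmt3b was at 100 RPKM in TKO+Dnmt3b1, against 29.6 in DKO+Dnmt3b1. The part of these levels in the family differences was not tested. Of the 696 genes higher in TKO, 319 (45.8%) had all 5 TKO add-back libraries above all 3 DKO add-back libraries, against 2071 (15.7%) of all genes compared. Of the 454 lower genes, 93 (20.5%) had all 5 below all 3, against 1291 (9.81%) of all. A separation in the opposite direction was seen for 1 (0.144%) of the higher and 19 (4.19%) of the lower genes. Taken enzyme by enzyme, 6.21% of all genes were higher in the TKO line by 1 or more and 2.1% lower with Dnmt3a1, 10.9% and 1.53% with Dnmt3a2, and 2.36% and 1.12% with Dnmt3b1. A difference of 1 or more with each of the 3 enzymes was found for 109 (15.7%) of the higher genes, against 188 (1.43%) of all, and for 27 (5.95%) of the lower genes, against 53 (0.403%) of all. The median difference was 1.28 between the parents and 0.72 between the add-back lines for the higher genes, −1.32 and −0.12 for the lower ones, and 0.07 and 0.10 for all genes.

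With family and enzyme as additive terms, limma called 3243 of 14229 genes between the add-back families (22.8%), 2189 higher (15.4%) and 1054 lower (7.41%) in the TKO lines, with 39.9% at an unadjusted p under 0.05. These included 353 of the 696 higher genes (50.7%) in the same direction and 90 of the 454 lower ones (19.8%). The count depended on single libraries: 329 genes were called without DKO+Dnmt3a2 and 600 without DKO+Dnmt3a1, and 2156 without TKO+Dnmt3a1 replicate 1. Of the calls 67.5% were higher, but 48.8% with median ratio scaling (1660 higher and 1745 lower), 45.1% with quantile normalization (1353 and 1645) and 51.9% with chromosome medians removed (1756 and 1626). A direct test of the parent difference against the mean add-back difference called 0 genes by limma (smallest adjusted p 0.346; 1486, or 10.4%, unadjusted).

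Of the higher genes 582 (83.6%) had a WT value nearer DKO than TKO, and of the lower genes 222 (48.9%) did. WT lay below both lines for 295 (42.4%) of the higher genes.

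**Figure D3:**
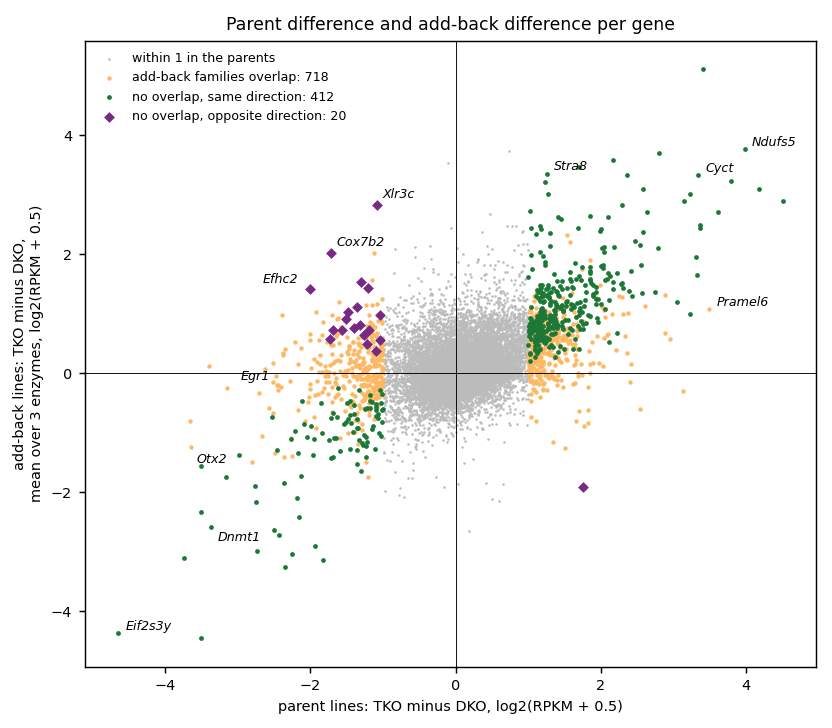
TKO minus DKO of log2(RPKM + 0.5) for the 13160 genes, between the parent lines (x axis) and between the add-back lines as the mean over 3 enzymes (y axis). Of the genes past 1 in the parents, the 412 whose add-back families do not overlap in the same direction (green) lie mostly at the upper right, and the 20 in the opposite direction (purple) include Xlr3c, Cox7b2 and Efhc2.

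Germline genes whose promoters are known to be methylated in somatic and ES cells did not differ in 1 direction between the parents. Of 37 such genes at 1 RPKM or more in a parent (of 44), 5 were higher in TKO by 1 or more and 6 were lower, where 5.29% and 3.45% of all genes were. Their median was −0.07, against 0.07 over all genes. Tex19.1, a germ cell and placental gene that restrains retrotransposons, was at 99.8 RPKM in TKO and 29.7 in DKO, against 19.23 in WT. Its copy Tex19.2, which can share reads with it, was at 6.47 RPKM in TKO and 0.689 in DKO, and both lie on chromosome 11. Rpl10l, the testis copy of a ribosomal protein gene, was at 25.5 RPKM in TKO and 75.1 in DKO, and Ctcfl, the testis relative of Ctcf, at 0.841 and 3.26 RPKM.

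Between the add-back lines, the median of these germline genes was 0.79, against 0.10 over all genes. Of the 37, 15 had all TKO add-back libraries above all DKO ones and 1 had them below, where 15.7% and 9.81% of all genes did. Limma called 15 higher and 2 lower (15.4% and 7.41% of all genes). Without DKO+Dnmt3a2 it called 5 higher and 0 lower (219 and 85 of all 13160 genes). Within TKO+Dnmt3a1, 19 of the 37 were higher by 1 or more in replicate 2 than in replicate 1 and 0 lower (median 1.02). Stra8, the retinoic acid responsive gate of meiosis, was chosen after its values were seen. It was at 26.5 RPKM in TKO and 10.8 in DKO, with 28.5 in WT. It stood at 105, 129, 62.5, 80.7 and 27.2 RPKM in the TKO add-back libraries, against 9.33, 7.24 and 2.36 in the DKO ones. Stra8 rose by 3.36 ± 0.13 between the add-back families (limma, adjusted p = 7.04e-05), and the call held in each of 8 fits that left out 1 library.

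Families on the X chromosome that are expressed in germ cells and placenta (Rhox, Xlr, Mage) had members past the threshold in both directions in the parents and in 1 direction in the add-back lines. Of 24 at 1 RPKM or more in a parent (of 46 in the table), 2 were higher in TKO by 1 or more and 5 were lower (median −0.10), where 5.29% and 3.45% of all genes were. Among the add-back lines, 20 of the 24 had all TKO libraries above all DKO ones and 0 had them below, where 15.7% and 9.81% of all genes did (median 1.45, against 0.10). Limma called 18 higher and 0 lower (15.4% and 7.41% of all genes). Without DKO+Dnmt3a2 it called 6 higher (219 of all 13160 genes). Within TKO+Dnmt3a1, 8 of the 24 were higher by 1 or more in replicate 2 than in replicate 1 and 0 lower (median 0.79). Xlr3c was at 9.87 RPKM in TKO, 21.5 in DKO and 0.019 in WT. The TKO add-back libraries held 2.58 to 6.50 RPKM, against 0.277, 0.154 and 0.498 in the DKO ones. Put back into DKO, each enzyme came with a level far below the parent, and put back into TKO with a level that stayed within 4-fold of it. Xlr3c rose by 2.85 ± 0.27 between the add-back families (limma, adjusted p = 0.0015). The difference between its 2 contrasts was −3.92 ± 0.61 and did not pass (limma, adjusted p = 0.351). Rhox6, a homeobox gene of this cluster, was at 17.0 RPKM in TKO and 6.63 in DKO. Magea4 was at 0.482 and 4.89 RPKM and Magea3 at 1.10 and 0.121 RPKM. Close copies in these families share reads, and single values are uncertain.

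Imprinted genes past the threshold were mostly paternally expressed. Of 21 maternally expressed genes 1 was higher in TKO by 1 or more and 0 were lower (median 0.25). Of 26 paternally expressed genes 5 were higher and 2 lower (median 0.37; 3 and 2 with chromosome medians removed), where 5.29% and 3.45% of all genes were. Peg3, a paternally expressed zinc finger gene, was at 63.6 RPKM in TKO, 21.1 in DKO and 14.1 in WT. It was at 24.4 to 53.7 RPKM in the TKO add-back libraries, against 10.98 to 17.4 in the DKO ones, and rose by 1.595 ± 0.17 between them (limma, adjusted p = 0.0024). Grb10, which codes for an adaptor that restrains insulin and growth signalling, was at 31.4 RPKM in TKO and 9.93 in DKO, but did not differ past the error between the add-back families (−0.22; limma, adjusted p = 0.486). Peg10, a retrotransposon-derived placental gene, was at 165 RPKM in TKO and 62.5 in DKO, with an add-back difference of −0.26 (limma, adjusted p = 0.472). Grb10 lies on chromosome 11 and Peg10 on chromosome 6. The zinc finger gene Plagl1 was at 4.54 RPKM in TKO and 1.28 in DKO, and Nap1l5 at 3.09 and 0.85 RPKM. Among markers of the 2-cell-like state, 6 of 25 reached 1 RPKM in a parent, and 0 of these differed by 1 or more.

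Pluripotency genes differed one by one rather than together. Of 30 naive genes 3 were higher and 3 lower in TKO by 1 or more (median 0.15), where 5.29% and 3.45% of all genes were. Zfp42 (Rex1), a zinc finger gene of naive ES cells, was at 47.3 RPKM in TKO, 182 in DKO and 222 in WT. The TKO add-back libraries held 36.5 to 49.1 RPKM, against 335, 415 and 237 in the DKO ones, so that the families were far apart. Zfp42 fell by 2.94 ± 0.14 between the add-back families (limma, adjusted p = 0.000129), while the parent difference of −1.94 did not pass (limma, adjusted p = 0.113).

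Klf2, a factor of the naive network, was at 76.7 RPKM in TKO and 196 in DKO, and fell by 0.94 ± 0.09 between the add-back families (limma, adjusted p = 0.0014). Nanog was at 406 RPKM in TKO, 164 in DKO and 214 in WT, and its add-back difference of 0.70 ± 0.22 did not pass (limma, adjusted p = 0.0518). Dppa2, which primes germline and early embryonic genes, was at 54.6 RPKM in TKO and 21.0 in DKO. Its add-back families overlapped (42.4 to 65.1 RPKM in TKO lines and 49.9 to 66.5 in DKO lines). Nanog lies on chromosome 6 and Dppa2 on chromosome 16, whose medians were higher in TKO by 0.44 and 0.41. With chromosome medians removed, the parent difference was 0.87 for Nanog and 0.98 for Dppa2, both under 1, and the naive list had 1 higher and 2 lower.

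Of 22 genes of the primed epiblast 2 were higher in TKO by 1 or more and 5 lower (median −0.09), where 5.29% and 3.45% of all genes were. With an enzyme put back, 6 had all TKO libraries below all DKO ones and 0 above (median −0.49), where 9.81% and 15.7% of all genes did. Besides Otx2 and Fgf15, the lower ones included Lefty1 and Lefty2, secreted inhibitors of Nodal. Lefty1 was at 52.6 RPKM in TKO, 223 in DKO and 50.7 in WT, and Lefty2 at 31.1, 154 and 21.5 RPKM. Here DKO was the line apart from WT, and the add-back families overlapped. Of 17 genes of Nodal signalling 1 was higher, Gdf3 (47.5 RPKM in TKO and 18.99 in DKO, on chromosome 6). Its add-back families overlapped (22.7 to 33.4 RPKM in TKO lines and 27.9 to 32.8 in DKO lines). Another 2 of the Nodal list were lower, the Lefty genes, for which DKO was the line apart from WT.

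Egr1, an immediate early gene induced by growth factor signalling, had the same pattern: 15.7 RPKM in TKO, 106 in DKO and 15.5 in WT, with 10.5 to 35.6 RPKM in the TKO add-back libraries and 18.99, 19.02 and 48.8 in the DKO ones. Fos, chosen after its values were seen, was at 3.55 RPKM in TKO, 20.5 in DKO and 3.20 in WT. The DKO library was the highest of the 11 for both genes. Of 30 immediate early genes, a list added after values were seen, 0 were higher and 3 lower in TKO by 1 or more. The shares over all genes were 5.29% and 3.45%.

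**Figure D4:**
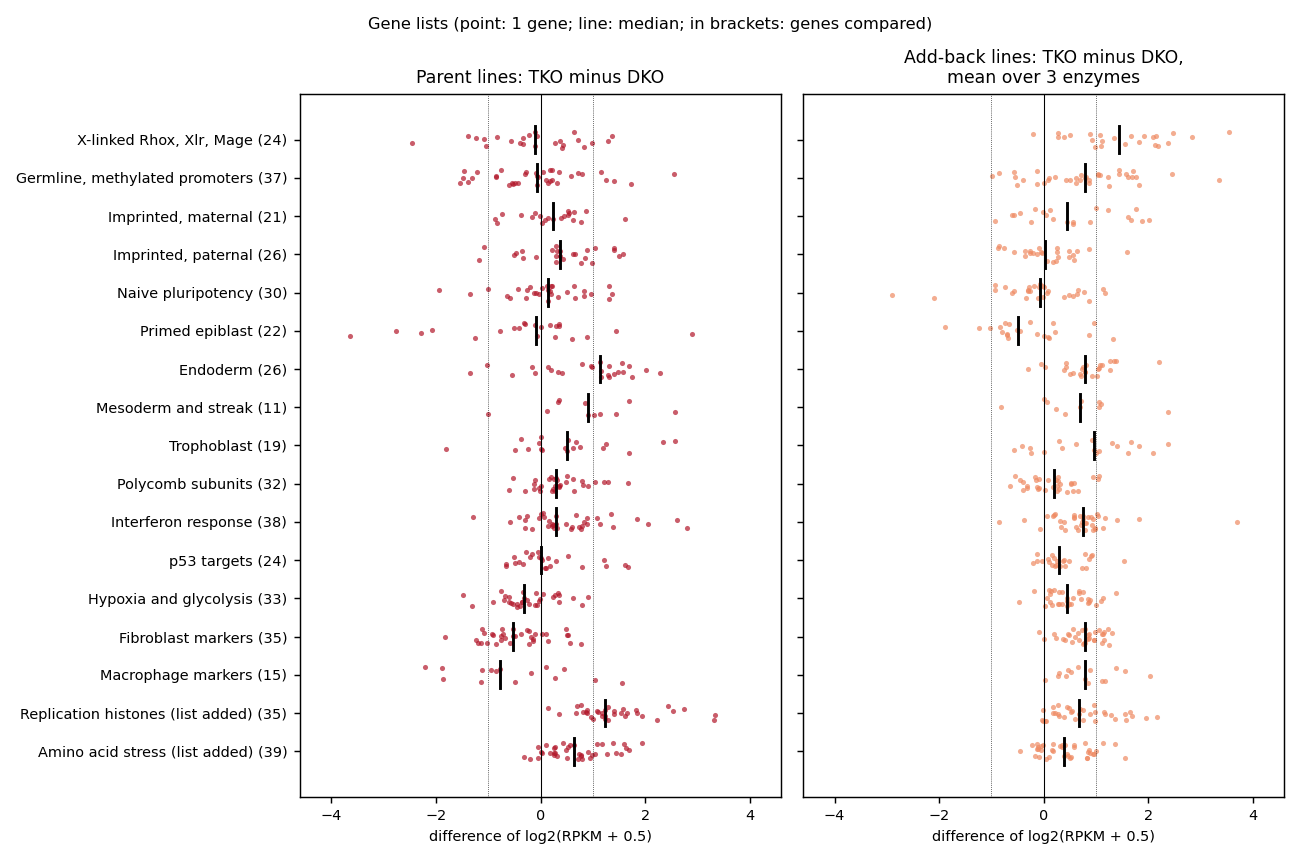
TKO minus DKO of log2(RPKM + 0.5) for the compared members of 17 gene lists, between the parent lines (left) and between the add-back lines as the mean over 3 enzymes (right); each point is 1 gene and each bar a median. Most endoderm and histone genes lie to the right of 0 in both panels, while X-linked genes are centred near 0 in the parents (median −0.10) and at 1.45 in the add-back lines.

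Among lineage genes, those of the endoderm stood highest: their median was above that of the mesoderm, trophoblast and neural lists. Of 26 endoderm genes 14 were higher in TKO by 1 or more (5.29% of all genes) and 2 were lower (3.45% of all genes). Their median was 1.14 (11 higher, 1 lower and 0.81 with chromosome medians removed). Gata6, the factor that sets the primitive endoderm fate, was at 7.30 RPKM in TKO, 1.43 in DKO and 1.84 in WT. With an enzyme put back, it held 2.45 to 5.64 RPKM in TKO lines, against 0.965 to 3.55 in the DKO ones. Gata4, its partner, was at 6.395 RPKM in TKO, 1.54 in DKO and 2.79 in WT. Cubn, an endocytic receptor of visceral endoderm, was at 7.61 RPKM in TKO, 1.16 in DKO and 0.27 in WT. Between the add-back families limma called 18 of the 26 higher and 0 lower, where it called 15.4% and 7.41% of all genes. The 18 included Gata6 (1.16 ± 0.30; limma, adjusted p = 0.0332), Gata4 (0.74 ± 0.20; limma, adjusted p = 0.0349) and Cubn (1.28 ± 0.22; limma, adjusted p = 0.0095). All TKO add-back libraries lay above all DKO ones for 4 of the 26, near the 15.7% of all genes. Without DKO+Dnmt3b1 they did for 19 of the 26, and for 3303 of all 13160 genes. Without DKO+Dnmt3a2 limma called 4 of the 26 higher, and 219 of all 13160 genes. Gata6 and Gata4 then lost the call (limma, adjusted p = 0.216 and 0.217). Without DKO+Dnmt3a1 limma called 399 of all 13160 genes higher. These included 5 of 26 endoderm, 8 of 37 germline, 10 of 24 X-linked, 3 of 38 interferon-response and 1 of 35 histone genes.

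The mesoderm and trophoblast lists shared some of the same genes. Of 11 mesoderm and streak genes 5 were higher in TKO by 1 or more and 1 lower (median 0.90; 3, 1 and 0.53 with chromosome medians removed). Of 19 trophoblast genes 5 were higher and 1 lower (median 0.51). For both lists the shares over all genes were 5.29% higher and 3.45% lower. Hand1, a factor of trophoblast giant cells and mesoderm that is in both lists, was at 7.76 RPKM in TKO, 0.884 in DKO and 0.833 in WT. The TKO add-back libraries held 3.89 to 14.3 RPKM, against 0.509 to 2.05 in the DKO ones, and Hand1 rose by 2.34 ± 0.36 between them (limma, adjusted p = 0.007; 0.0683 without DKO+Dnmt3a2). It lies on chromosome 11, whose median was higher in TKO by 0.50. Eomes, a T-box factor in all 3 of these lists, was at 2.88 RPKM in TKO and 0.541 in DKO. Tbx1 was at 3.58 RPKM in TKO and 1.00 in DKO, and Gata3, a trophoblast factor, at 3.17 and 0.23 RPKM. The 1 trophoblast gene lower in TKO was Plac8 (2.31 RPKM in TKO and 9.38 in DKO). Its add-back families overlapped (5.53 to 13.1 RPKM in TKO lines and 6.21 to 12.3 in DKO lines). Tfap2c, a factor of trophoblast and germ cell fate named after its values were seen, was at 42.7 RPKM in TKO and 17.7 in DKO. Tfap2c rose by 1.42 ± 0.14 between the add-back families (limma, adjusted p = 0.0015), and kept the call in each of 8 fits without 1 library.

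Fibroblast and macrophage genes ran the other way between the parents. The 35 fibroblast markers summed to 1104 RPKM in TKO and 1434 in DKO, with 811 in WT, and the 21 macrophage markers to 93.8 RPKM in TKO and 129 in DKO, with 57.4 in WT. None of either list was at 0 in the parents. Of the fibroblast markers 0 were higher in TKO by 1 or more and 7 lower (median −0.52), and of the 15 macrophage markers compared 2 were higher and 5 lower (median −0.78). Over all genes 5.29% were higher and 3.45% lower. Col1a2, a collagen chain, was at 24.4 RPKM in TKO and 58.0 in DKO, and C1qa, a complement gene of macrophages, at 0.529 and 4.26 RPKM. Among the add-back lines the sums ran from 1023 to 5015 RPKM (TKO) and 426 to 3751 RPKM (DKO) for fibroblasts, highest in both Dnmt3b1 libraries and lowest in DKO+Dnmt3a2. For macrophages they ran from 91.8 to 464 and from 22.6 to 416 RPKM, with 8 of 21 markers at 0 in DKO+Dnmt3a2. In the add-back lines, the fibroblast list had a median difference of 0.79, close to that of the endoderm list (0.79). Their part in the endoderm values of the add-back lines was not tested. In bulk RNA, fewer cells of a type and less RNA per cell cannot be told apart.

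Of 9 neural genes at 1 RPKM or more in a parent 1 was higher, the tubulin gene Tubb3 (41.8 RPKM in TKO and 17.1 in DKO). Another 2 were lower, the Notch ligand gene Dll1 (3.64 and 9.57 RPKM) and Neurod1 (2.32 and 6.11 RPKM). The shares over all genes were 5.29% higher and 3.45% lower.

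Replication-dependent histone genes, a list added after their values were seen, were all on 1 side. Of 35 compared (of 68 in the table) 35 were above 0, 24 were higher in TKO by 1 or more and 0 lower (median 1.24, against 0.07 over all genes). Among all genes 5.29% were higher by 1 or more and 3.45% lower. The replicates of TKO+Dnmt3a1 differed about as widely: 21 of the 35 were higher by 1 or more in replicate 2 than in replicate 1 and 0 lower (median 1.32). In TKO+Dnmt3a2 3 were higher and 0 lower (median 0.65). The parent median of this list was thus not larger than the replicate median of TKO+Dnmt3a1, but was larger than that of TKO+Dnmt3a2. Their transcripts normally end in a stem-loop without a polyA tail, and these libraries were made from polyA RNA. Hist1h4i was at 32.3 RPKM in TKO, 2.76 in DKO and 3.79 in WT. It was at 15.4 to 22.8 RPKM in the TKO add-back libraries, against 3.88 to 9.04 in the DKO ones, and rose by 1.70 ± 0.21 between them (limma, adjusted p = 0.0035). Hist1h2bj was at 9.18 RPKM in TKO and 0.472 in DKO, but at 2.38 and 13.2 RPKM in the 2 TKO+Dnmt3a1 libraries. Hist1h3c was at 12.2 RPKM in TKO and 1.69 in DKO, with 6.47 and 21.5 RPKM in TKO+Dnmt3a1. With an enzyme put back, 15 of the 35 had all TKO libraries above all DKO ones, where 15.7% of all genes did. Limma called 12 higher (15.4% of all genes), and 1 without DKO+Dnmt3a2 (219 of all 13160 genes). Most of these genes lie in the cluster on chromosome 13, whose share of higher genes was 8.57% at a median of −0.01. Histone genes of 1 class are near copies, and their reads can be shared.

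Among Polycomb subunits 4 of 32 were higher in TKO by 1 or more and 0 lower (median 0.29), where 5.29% and 3.45% of all genes were. With chromosome medians removed 2 were higher and 0 lower. Between the add-back families limma called 3 of the 32 higher and 5 lower, against 15.4% and 7.41% of all genes. Cbx8, a chromodomain subunit on chromosome 11, was at 2.14 RPKM in TKO and 0.58 in DKO. Phf19, which helps the complex bind chromatin and lies on chromosome 2, was at 9.61 RPKM in TKO and 3.86 in DKO, and rose by 1.01 ± 0.18 between the add-back families (limma, adjusted p = 0.0112). Of 26 genes of retroelement silencing 1 was higher, the histone gene H3f3b, and 0 lower (median 0.25, and 0.02 with chromosome medians removed).

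Interferon-response genes had a positive median. Of 38 compared 8 were higher in TKO by 1 or more and 1 lower (median 0.30), and 5 and 1 with chromosome medians removed, where 5.29% and 3.45% of all genes were. Of the add-back values 9 had all TKO libraries above all DKO ones and 0 below (median 0.74), where 15.7% and 9.81% of all genes did. Within TKO+Dnmt3a2, 10 of the 38 were lower by 1 or more in replicate 2 than in replicate 1. Isg15, the modifier that Ube2l6 conjugates, was at 15.3 RPKM in TKO, 2.09 in DKO and 7.02 in WT, but its add-back families overlapped (9.60 to 52.9 RPKM in TKO lines and 1.65 to 29.9 in DKO lines). Cxcl10, a chemokine, was at 4.27 RPKM in TKO and 0.643 in DKO, and Usp18, which removes Isg15, at 3.02 and 0.476 RPKM. Limma called 13 members higher between the add-back families (15.4% of all genes), and 3 without DKO+Dnmt3a2 (219 of all 13160 genes).

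Stress genes were mixed by pathway. Of 24 p53 targets 4 were higher in TKO by 1 or more and 0 lower, with a median of 0.01 that turned to −0.08 with median ratio scaling and −0.06 with quantile normalization. All of those named were growth arrest or death genes: Gadd45a was at 78.9 RPKM in TKO and 25.4 in DKO, Gadd45g at 48.3 and 14.8, Gadd45b at 49.8 and 21.2 and Fas at 3.94 and 1.36 RPKM. Genes of the amino acid response, a list added after their values were seen, were higher by 1 or more for 11 of 39 and lower for 0 (median 0.63). The shares over all genes were 5.29% and 3.45%. Of the 39 genes 35 were above 0 and 4 below. Atf4, the transcription factor at the head of that response, was at 238 RPKM in TKO, 78.8 in DKO and 64.1 in WT. It was at 191 to 262 RPKM in the TKO add-back libraries, against 62.1 to 90.9 in the DKO ones, and rose by 1.604 ± 0.16 between them (limma, adjusted p = 0.0015). Among genes it is known to activate, Trib3 was at 23.2 RPKM in TKO and 7.63 in DKO, Ddit3 at 61.9 and 22.4, and the transporter gene Slc7a5 at 129 and 39.5 RPKM. These were picked from the members past 1. Other members of the list differed little between the parents, among them Psat1 (0.27), Phgdh (0.27), Atf5 (0.26), Sesn2 (−0.20) and Ddit4 (−0.31).

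The 4 metallothionein genes, which bind zinc and other metals, were also added after their values were seen. Mt2 was at 709 RPKM in TKO, 346 in DKO and 110 in WT. With an enzyme put back, it was at 631 to 854 RPKM in the TKO lines and at 122 to 144 RPKM in the DKO lines, and rose by 2.44 ± 0.09 between them (limma, adjusted p = 7.04e-05). Mt1 was at 476 RPKM in TKO and 279 in DKO, with 424 to 619 RPKM in the TKO add-back lines and 75.2 to 106 in the DKO ones. The DKO parent thus lay between its own add-back lines and TKO for both genes.

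Genes of hypoxia and glycolysis had 0 higher and 2 lower in TKO by 1 or more among 33 (median −0.31). Here and for the glutathione list below, the shares over all genes were 5.29% higher and 3.45% lower. Ldhb, a lactate dehydrogenase subunit on chromosome 6, was at 159 RPKM in TKO and 447 in DKO, and Car9, a carbonic anhydrase, at 1.11 and 3.49 RPKM. Between the add-back lines the median was 0.44, with 5 of 33 above without overlap, near the 15.7% of all genes, and 0 below. Within TKO+Dnmt3a2, 9 were higher by 1 or more in replicate 2 than in replicate 1. Of 28 glutathione genes 0 were higher and 3 lower: Gstt2, Gstm3 and Gstt1 (2.06 to 8.38 RPKM in TKO and 4.91 to 19.3 in DKO). In the add-back lines 7 of this list were above without overlap and 0 below (median 0.43), where 15.7% and 9.81% of all genes were. Limma called 10 of the 28 higher and 1 lower there, against 15.4% and 7.41% of all genes.

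The host transcript of the miR-17-92 cluster was lower in TKO. Mir17hg, on chromosome 14, was at 3.18 RPKM in TKO, 16.6 in DKO and 5.49 in WT. The TKO add-back libraries held 4.45 to 6.34 RPKM, against 9.98 to 12.4 in the DKO ones. Mir17hg fell by 0.97 ± 0.15 between the add-back families (limma, adjusted p = 0.0064; 0.0677 without DKO+Dnmt3a2), and its parent difference was −2.22. The table also lists the hairpins inside this transcript. They rest on few reads, an estimated 0 in TKO and 15 in DKO for Mir19b-1 and 1 and 15 for Mir92-1, and polyA libraries measure the host RNA and not the mature miRNAs. Of the cluster's mature miRNAs 1 arm of each hairpin is shown here (RefSeq, GRCm38.p6; bases 2 to 8, the seed that pairs with targets, in capitals). These arms fall into 4 seed groups. The opposite arms, such as miR-17-3p and miR-18a-3p, have other seeds and are left out.
mmu-miR-17-5p: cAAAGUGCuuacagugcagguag
mmu-miR-20a-5p: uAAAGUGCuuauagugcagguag
mmu-miR-18a-5p: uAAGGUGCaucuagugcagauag
mmu-miR-19a-3p: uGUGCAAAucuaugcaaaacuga
mmu-miR-19b-3p: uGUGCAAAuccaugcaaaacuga
mmu-miR-92a-3p: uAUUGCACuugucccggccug
The first pair shares the seed AAAGUGC and the miR-19 pair GUGCAAA. Short RNA genes made up 44 (6.32%) of the genes higher in TKO and 78 (17.2%) of the lower ones. For reference, 13761 of the 14229 genes fitted by limma were not short RNA genes. Several of the largest single values were of this kind: Mir6935 rests on an estimated 3 reads in TKO and 45 in DKO, Rprl3 on 0 and 27, Mir147 on 37 and 3 and Mir8112 on 21 and 1.

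Genes of the Y chromosome set the lines apart. Eif2s3y, a translation initiation factor, was at 0.585 RPKM in TKO and 26.7 in DKO, with 0.312 in WT. Eif2s3y was at 0.427 to 4.14 RPKM in the TKO add-back libraries, against 39.4 to 41.4 in the DKO ones, and fell by 4.49 ± 0.39 between them (limma, adjusted p = 0.001). Ddx3y, an RNA helicase, was at 0.863 RPKM in TKO, 6.46 in DKO and 0.394 in WT. Uba1y was at 0.019 RPKM in TKO, 5.42 in DKO and 0 in WT, and Zfy1 was listed at 0 in every library of the TKO family and WT and at 2.84 RPKM in DKO. The 9 Y-linked genes summed to 2.02 RPKM in TKO and 46.2 in DKO, 1.52 to 9.74 in the TKO add-back libraries, 75.5 to 88.0 in the DKO ones and 1.06 in WT. All 5 that were compared were lower in TKO, and all TKO add-back libraries lay below all DKO ones for each. WT stood with the TKO family here, and the cause of this contrast was not tested.

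Whole chromosomes also differed. The median of TKO minus DKO was 0.50 on chromosome 11, 0.44 on 6, 0.41 on 16, 0.31 on 12, 0.20 on 3 and 0.12 on 8, and lay between −0.09 and 0.06 on the others except Y. Of the 1125 genes compared on chromosome 11, 145 (12.9%) were higher by 1 or more and 15 (1.33%) lower, against 5.29% and 3.45% of all genes. Set against WT, the medians of TKO were 0.54, 0.52, 0.49 and 0.29 on chromosomes 11, 6, 16 and 12, and those of DKO 0.01, 0.09, 0.06 and 0.01. In the add-back lines the TKO minus DKO median was 0.33 on chromosome 11 but 0.07, 0.13 and 0.07 on chromosomes 6, 16 and 12. Without chromosomes 3, 6, 8, 11, 12, 16 and Y, 351 genes were higher and 371 lower. Of the 6 genes limma called between the parents 5 lie elsewhere, and 2210409E12Rik lies on chromosome 11. Copy number was not measured in the data used here, and the part of these shifts in the counts above was not tested beyond these values.

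**Figure D5:**
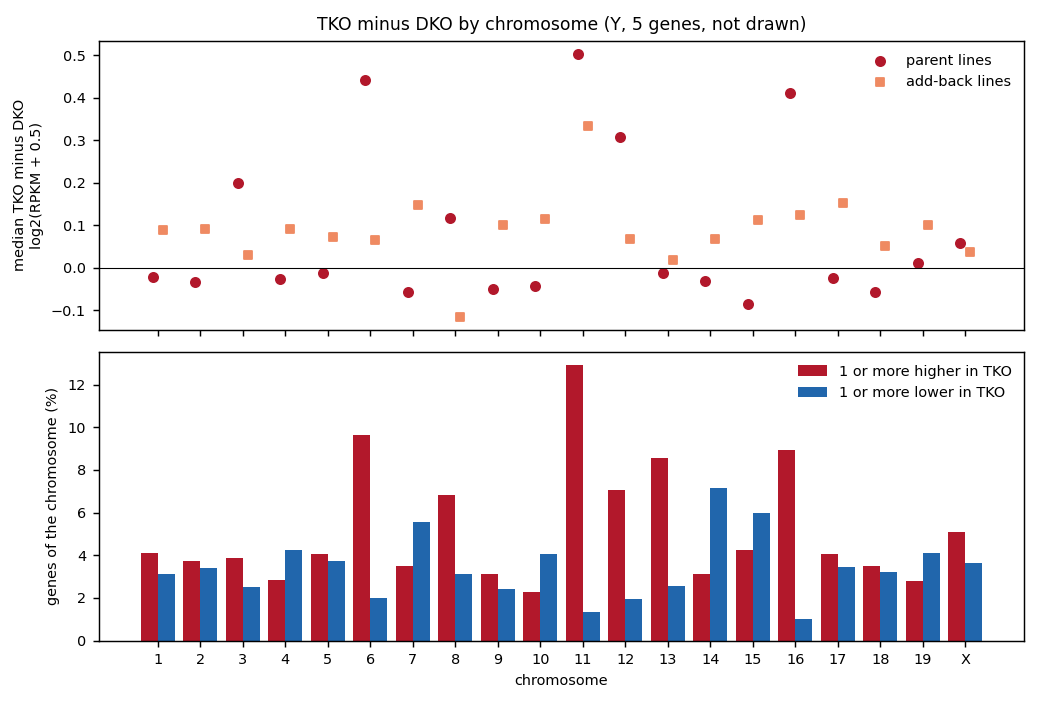
By chromosome, the median TKO minus DKO of log2(RPKM + 0.5) between the parent lines (circles) and the add-back lines (squares) above, and the percent of its genes higher (red) or lower (blue) by 1 or more below. Chromosomes 11, 6, 16 and 12 stand above the rest in the parents, and of these only chromosome 11 stands apart in the add-back lines (0.33).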

How the data were processed

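PolyA RNA of 11 mouse ES cell libraries was prepared with the TruSeq RNA kit v2, which does not mark strand, per the labels' protocols. The authors deposited 1 RPKM value per gene and library, and per the submitters' processing notes bcl2fastq 1.8.4, STAR 2.4.0 and build mm9 were used; the counting tool is not given in the sources used here. RPKM are not counts, so no count test was run.

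Values were taken as log2(RPKM + 0.5). The parents were compared over genes at 1 RPKM or more in either, with a difference of 1 as the threshold. Limma 3.58.1 (lmFit, eBayes with trend; R 4.3.3; Benjamini-Hochberg adjustment) was fitted to all 11 libraries with 9 group means, and to the 8 add-back libraries with family and enzyme as terms, over 14229 genes. Nothing says that replicates came from separate cultures, so p-values measure the spread between libraries, which may be technical. The parent and add-back comparisons were checked on simulated data at the main setting. The test of the parent difference against the add-back difference and the other settings had no such check.

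Depth was estimated from the spacing of low RPKM values of short RNAs. The 24016 genes were matched to RefSeq GRCm38.p6 names, 23163 by accession, 713 by symbol and 84 by synonym, for chromosomes and promoters only. A comparison of promoter CG content between gene groups was void, since 73% of the genes higher in TKO and 60.8% of the lower ones had a promoter.

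The named genes, predicted and clone names left out, were the Dnmt genes, the 15 largest differences in each direction, the 10 largest in each direction that recurred without overlap, in each list the up to 4 members with the largest differences past the threshold, and the genes limma called between the parents. Some genes that this rule takes are not reported here. Other genes were named after their values were seen. The members and lists were chosen with earlier results of these data known.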

Additional observations from a re-analysis of the deposited data

Results flagged for a closer look

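For 20 genes past 1 between the parents, the parent difference ran one way and the add-back families were separated without overlap the other way. The difference between the 2 contrasts did not pass for any of them (limma, adjusted p 0.346 to 0.49), and what sets them apart was not tested. In 19 the gene was lower in TKO than in DKO, while all 5 TKO add-back libraries lay above all 3 DKO ones. They were 4.19% of the 454 lower genes, where 15.7% of all genes compared had that order in the add-back lines. In 1, or 0.144% of the 696 higher genes, the order was the reverse, which 9.81% of all genes had. Such reversals were thus rarer among the genes past 1 than these orders were among all genes.

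Efhc2, an X-linked gene with EF-hand domains, had the largest such parent difference, −2.01. It was at 3.86 RPKM in TKO and at 3.07 to 7.97 RPKM in the TKO add-back libraries. It was at 17.0 RPKM in DKO, but at 0.939 to 2.80 RPKM in the DKO add-back libraries and 0.742 in WT. Cox7b2, a testis form of a cytochrome c oxidase subunit, differed by −1.71, with 3.39 RPKM in TKO and 12.3 in DKO, and 5.68 to 12.6 RPKM in the TKO add-back libraries against 0.883 to 4.42 in the DKO ones. Xlr3c differed by −1.08 between the parents.

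Mael, which acts in the piRNA pathway of germ cells, differed by −1.31, Gtsf1, of the same pathway, by −1.30 and Ctcfl by −1.49. Dpep3 differed by −1.21, and the X-linked near copies Rhox2g and Rhox2h by −1.22 and −1.04. Acss1, which makes acetyl-CoA, differed by −1.73, Pygm, the muscle glycogen phosphorylase, by −1.39 and Igfbp4 by −1.36. The complement gene C2 differed by −1.04, H2-DMb1 by −1.51, Kazn by −1.2 and Arhgef19 by −1.26. The remaining ones were 1700019B21Rik (−1.68), 1700123I01Rik (−1.09) and Mir3061 (−1.57). Mir3069 ran in the reverse direction (1.75), but it was listed at 0 in DKO and its value depends on the pseudocount.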

How the results depend on the processing

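The 1150 genes past a difference of 1 became 640 at 5 RPKM or more, 722 without chromosomes 3, 6, 8, 11, 12, 16 and Y and 143 at 4-fold, and were 841 to 1541 under the other settings. The 412 that recurred became 253 at 5 RPKM or more and 243 without those chromosomes. The 6 limma calls between the parents became 0 with quantile normalization, 421 with no filter on low values, 51 at 5 RPKM or more, 29 with chromosome medians removed, 34 without short RNA genes and 0 without any 1 replicate of TKO+Dnmt3a1 or TKO+Dnmt3a2. The limma calls of the difference between the 2 contrasts became 870 with no filter, and were 0 under each other setting. The 3243 add-back calls became 1440 with no filter and 329 to 3441 when 1 library was left out. The settings that leave out chromosomes or short RNA genes were added after seeing the data. In each case the cause was not tested. For the parent differences of single named genes, 1104 values kept direction and call, 46 passed where the main value did not, and 33, all of the 6 genes called between the parents, lost the call. Dnmt3a, not called, changed sign to −0.085 with chromosome medians removed. No paired analysis was possible because the TKO and DKO lines share only replicate number 1. With 1 library per parent, the precision of any single difference rests on the replicated add-back lines.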
